A study of Homo sapiens with 4 samples.

Results

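Centromere, kinetochore and spindle checkpoint genes were examined in NGP cells, an established human neuroblastoma line with amplified MYCN. The 41 genes were taken by name from a list and matched by Ensembl identifier, and all 41 were found among the 25693 human gene rows of the count table. Cells had been synchronised by serum starvation and then kept for 24 h with Nutlin-3, which keeps MDM2 from binding p53, or with ethanol, the solvent. Both groups share the line, the synchronisation and the ERCC spike-in RNAs, which were diluted 1000-fold in one library of each treatment and 10000-fold in the other. RNA was measured in droplets on the ddSeq device with a kit that reads the 3' end of polyadenylated transcripts.

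The centromere is marked by nucleosomes that carry the histone H3 variant CENP-A, and a constitutive network of CENP proteins sits on them through the cell cycle. At mitosis this inner layer recruits the outer kinetochore, whose NDC80 complex binds microtubules, while the spindle assembly checkpoint holds CDC20 and with it the anaphase-promoting complex until every chromosome is attached. Many of these genes are transcribed mainly in late S phase, G2 and mitosis. As background, active p53 is known to lower many such genes through p21 and the DREAM repressor complex.

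Each treatment had 250 columns of counts that the names tie to a treatment but not to a library, so each treatment was 1 pool, with no replicate and no test between treatments. The pools held 1342134 human counts in ethanol and 1301232 in Nutlin-3. Columns were of 2 classes, 113 large ones per treatment with totals of at least 5288 and 137 small ones of at most 3598. The treatments shared 219 of their 250 names, and all 113 names of large columns were the same in both treatments. Columns are therefore not called cells here, and the values without shared names are given below. The treatment label was checked with CDKN1A, the p21 gene, which had 188 counts under Nutlin-3 against 70 under ethanol, and with MDM2, which had 504 and 315. All 9 neuroblastoma markers were present, with 2973 counts in ethanol and 2895 in Nutlin-3, with CHGA higher (411 and 559) and MYCN lower (1140 and 877) under Nutlin-3. Immune, endothelial and epithelial markers summed to at most 21 counts in a treatment, with no row for PTPRC, CD3E, PECAM1, CDH5 and KRT5. Fibroblast markers, with no row for COL1A2, summed to 106 in ethanol and 107 in Nutlin-3, in which LUM went from 34 to 13 and COL1A1 from 29 to 47. The part of these genes in the results was not tested.

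Most of the 41 genes were lower in the Nutlin-3 pool. Their counts summed to 4825 in Nutlin-3 and 5795 in ethanol, or 0.371% (95% exact binomial interval 0.360 to 0.381) and 0.432% (0.421 to 0.443) of human counts, a ratio of 0.859. The log2 ratio of a gene, Nutlin-3 over ethanol, had 0.5 counts added to each sum and was scaled by the human counts multiplied by edgeR's TMM factors. Ratios of summed shares use the human counts without these factors. The log2 ratio was below 0 for 38 members and above 0 for 3, which were CENPP, CENPT and PMF1. Over all 14830 genes tested, 50.3% were below 0. The members' median was -0.21, with a range from -0.66 to 0.32, against a median of 0.00 over all genes tested. All 41 members passed the filter on low counts, and 38 had a mean of at least 50 CPM, the count per 1e+06 human counts scaled by the same factors. Of those 38, 36 were below 0, against 52.8% of the 8844 genes at that level.

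A fold change of -0.25 or lower was found for 14 of the 41 members, against 16.0% of all genes tested, and for 13 of the 38 members averaging 50 CPM or more, against 6.98% of genes at that level. A 95% counting interval wholly below 0 was found for 5 members, CENPL, SPC25, CENPF, BUB1B and SGO1, against 3.57% of all genes tested, and for 0 members wholly above 0, against 4.55%. All 5 were among the 38 members with 50 CPM or more, where 2.17% of genes had such an interval. These intervals treat counts as independent and hold no variation between cultures. In the large columns, which hold most counts, the spread between columns was far below that of independent counts, as given later, so the intervals do not describe the counting error of those sums. In bulk sums such as these, fewer cells that express a gene and less RNA per cell cannot be told apart.

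**Figure D1:**
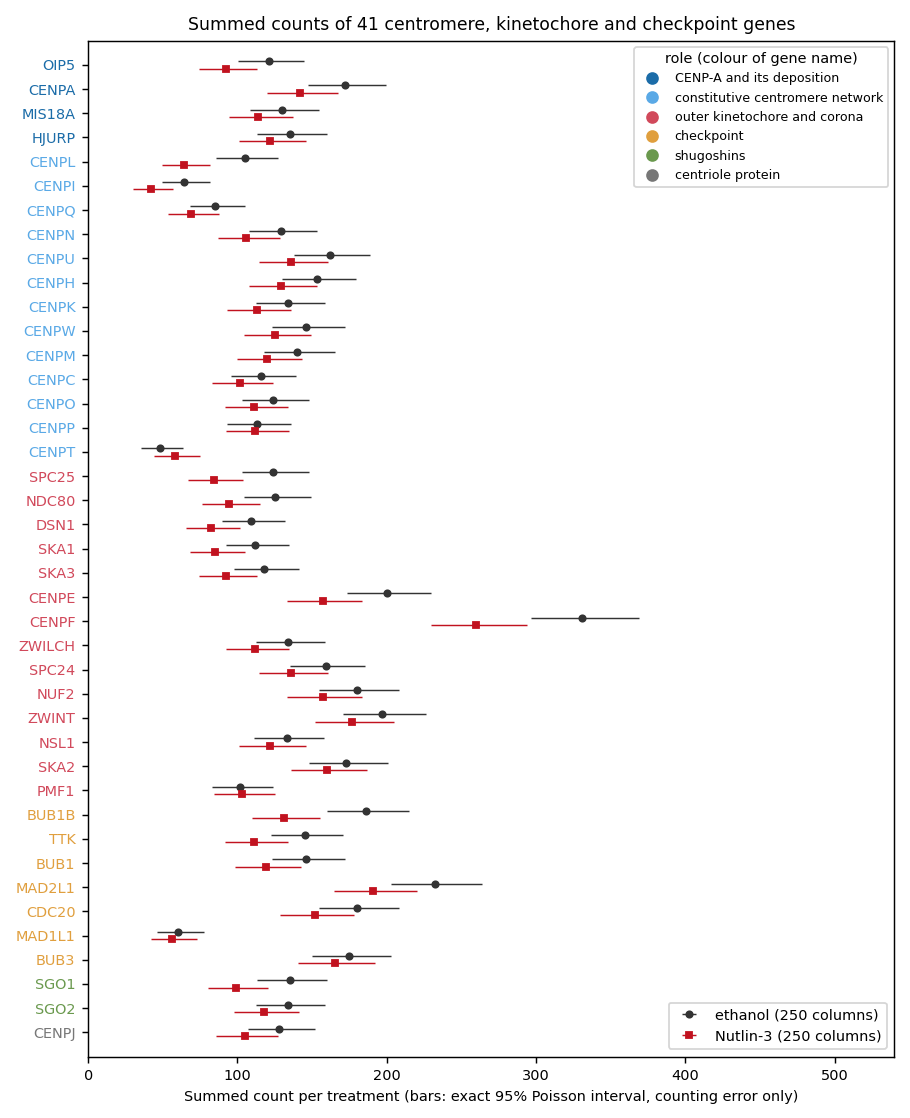
Summed counts of the 41 genes in ethanol (circles) and Nutlin-3 (squares), with exact 95% Poisson intervals, grouped by role. The Nutlin-3 sum lies below the ethanol sum for most genes, while the intervals of most pairs overlap.

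The promoters of these genes were looked at because most members differed in the same direction. The cell cycle homology region, a short element that the DREAM complex and its relatives bind, has TTTGAA and TTCGAA among its known forms, and CCAAT is the box bound by NF-Y. RefSeq (GRCh38.p14) promoter windows of 300 bases, 250 before and 50 after each start, were found for 34 of the 41 members. TTTGAA, searched on both strands, was in the window of 15 of these 34, against 15.2% of all 35116 promoters and 13.7% of tested genes with a window. TTCGAA, which reads the same on both strands, was in 5 of 34, BUB1, CENPW, NDC80, OIP5 and SGO1, against 1.45% of all promoters and 2.41% of tested genes, and in all 5 it began between 3 bases before and 18 bases after the start. TTTAAA was in 4 of 34, against 12.2% of all promoters and 10.6% of tested genes, and CCAAT in 22 of 34, against 34.6% and 43.9%. Shares of all promoters count each entry, and those of members and tested genes count each gene. In NDC80 the TTTGAA match, written TTCAAA on this strand, touches TTCGAA end to end. A match says that the letters are there, not that the site is used.

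The windows below run from 100 bases before to 25 bases after the start, 5' to 3' on the gene's strand, for the members with TTCGAA and for those with a counting interval below 0. CENPL had no entry. Capitals mark every match of the 4 motifs just named, on either strand.
BUB1B, chr15:40160969-40161093, plus strand: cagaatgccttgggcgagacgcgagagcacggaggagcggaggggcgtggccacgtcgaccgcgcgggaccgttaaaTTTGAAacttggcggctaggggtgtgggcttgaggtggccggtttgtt
SGO1, chr3:20186182-20186306, minus strand: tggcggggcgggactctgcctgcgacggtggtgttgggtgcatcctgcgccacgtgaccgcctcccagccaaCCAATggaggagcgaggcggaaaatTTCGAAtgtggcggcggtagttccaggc
SPC25, chr2:168890406-168890530, minus strand: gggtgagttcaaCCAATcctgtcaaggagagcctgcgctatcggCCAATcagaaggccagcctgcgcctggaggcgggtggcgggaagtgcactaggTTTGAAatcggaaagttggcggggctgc
CENPF, chr1:214603095-214603219, plus strand: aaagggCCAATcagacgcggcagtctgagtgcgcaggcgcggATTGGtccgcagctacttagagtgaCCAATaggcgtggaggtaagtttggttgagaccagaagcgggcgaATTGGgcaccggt
BUB1, chr2:110678039-110678163, minus strand: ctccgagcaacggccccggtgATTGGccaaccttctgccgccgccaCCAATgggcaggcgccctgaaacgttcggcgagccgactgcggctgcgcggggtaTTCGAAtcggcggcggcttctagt
OIP5, chr15:41332567-41332691, minus strand: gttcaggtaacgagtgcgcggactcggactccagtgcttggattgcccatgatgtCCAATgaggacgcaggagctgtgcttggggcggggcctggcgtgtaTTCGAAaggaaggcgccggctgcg
NDC80, chr18:2571457-2571581, plus strand: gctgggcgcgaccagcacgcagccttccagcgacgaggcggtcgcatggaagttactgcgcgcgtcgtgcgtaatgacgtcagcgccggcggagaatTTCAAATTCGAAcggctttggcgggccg
CENPW, chr6:126340015-126340139, plus strand: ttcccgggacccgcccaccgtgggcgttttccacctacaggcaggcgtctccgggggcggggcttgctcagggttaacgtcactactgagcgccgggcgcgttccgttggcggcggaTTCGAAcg
BUB1, OIP5 and SGO1 show the same layout, a TTCGAA at the start with a CCAAT box upstream of it, and SPC25 has TTTGAA in that place. In CENPF, TTTGAA begins at base 41 counted from the start, outside the stretch shown. The 19 members with TTTGAA or TTCGAA had a median log2 ratio of -0.24 and were below 0 in 19 of 19 cases, and the 15 without either had a median of -0.18 and were below 0 in 12. TTTAAA was not part of this split, so CENPE and SGO2, which have TTTAAA and neither of the others, counted among the 15. The spans of the groups, -0.51 to -0.10 and -0.56 to 0.32, overlap, and this difference was not tested. Of all 41 members, 38 were below 0, against 50.3% of tested genes. The share below 0 among tested genes with TTTGAA or TTCGAA was not worked out. The order of the medians held in the large columns, at -0.21 with and -0.13 without, and was the other way in the small columns, at -0.43 and -0.49.

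At the centromere itself, all 4 genes of CENP-A and its deposition were lower in Nutlin-3. CENPA, the histone variant, had 142 counts under Nutlin-3 against 172 under ethanol, or 109 and 128 CPM, a log2 ratio of -0.23 (-0.56 to 0.10). HJURP, the chaperone that places CENP-A, had 122 and 135 counts and the smallest difference of the 4, -0.10 (-0.47 to 0.26). MIS18A, a subunit of the complex that licenses deposition, had 114 and 130 counts. OIP5, its MIS18-beta partner, had 92 and 121 counts and the lowest value, -0.35 (-0.76 to 0.05). The interval of each of the 4 included 0.

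The constitutive centromere-associated network showed more spread among its 13 genes, of which 11 were lower and 2 higher, with a median of -0.20. CENPL (chr1:173799550-173824720, GRCh38), which works as a pair with CENPN, had 64 counts under Nutlin-3 against 105 under ethanol, or 49.2 and 78.2 CPM. Its log2 ratio of -0.66 (-1.14 to -0.21) was the lowest of all 41 members, and the Poisson intervals of its sums did not overlap. CENPN had 106 and 129 counts and a value of -0.24 (-0.62 to 0.14), nearer to 0 than that of CENPL, with overlapping intervals and no test between them.

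In the group of CENPH, CENPI, CENPK and CENPM, CENPI had 42 counts under Nutlin-3 against 64 under ethanol and a log2 ratio of -0.56 (-1.16 to 0.02). The other three differed less, at 129 and 153 counts for CENPH, 113 and 134 for CENPK and 120 and 140 for CENPM. Their log2 ratios lay between -0.20 and -0.18. CENPT and CENPW pair through histone folds, and these partners had values of opposite sign. CENPT had 58 counts under Nutlin-3 against 48 under ethanol, the highest value of all members at 0.32 (-0.26 to 0.90), and CENPW had 125 and 146 counts, -0.18 (-0.53 to 0.18). The intervals of both included 0 and overlapped each other.

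CENPC, which links CENP-A nucleosomes to the outer kinetochore, had 102 counts under Nutlin-3 against 116 under ethanol. Of the complex of CENPO, CENPP, CENPQ and CENPU, CENPP was nearly level at 112 and 113 counts, 0.03 (-0.36 to 0.42). CENPO had 111 and 124 counts, CENPQ 69 and 85, and CENPU, the member of the network with the most counts, 136 and 162, a log2 ratio of -0.21 (-0.55 to 0.13). Taking the inner centromere as these 13 and the 4 CENP-A genes, 15 of 17 were lower, with a median of -0.20. The 1 interval below 0 among them, that of CENPL, is near the 3.57% of all genes tested.

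The outer kinetochore, SKA complex and corona were lower in 13 of 14 genes, with a median of -0.26. In the large columns alone their median was -0.14, close to the -0.15 of the inner centromere there. Within the NDC80 complex, which grips the microtubule, the 4 subunits differed in size. SPC25 (chr2:168834132-168913371) had 84 counts under Nutlin-3 against 124 under ethanol, a log2 ratio of -0.51 (-0.93 to -0.10), the lowest of the 14. NDC80 had 94 and 125 counts, -0.36 (-0.77 to 0.03). NUF2, which pairs with NDC80, had 157 and 180 counts, and SPC24, which pairs with SPC25, had 136 and 159, with values of -0.15 and -0.18.

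Of the MIS12 complex, which ties the NDC80 complex to the inner layer, DSN1 had 82 counts under Nutlin-3 against 109 under ethanol, -0.36 (-0.80 to 0.06). NSL1 had 122 and 133 counts. PMF1 had 103 and 102 and the highest value of the outer genes, 0.06 (-0.35 to 0.47). PMF1 shares exons on its strand with the read-through gene PMF1-BGLAP, so its count is uncertain. The SKA complex holds the kinetochore on shrinking microtubules, and its SKA1 and SKA3 subunits had 85 against 112 and 92 against 118 counts, with log2 ratios of -0.35 and -0.31. SKA2 had 160 and 173 counts and a value of -0.07, with an interval that reached from -0.39 to 0.25.

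The corona is the outermost, fibrous layer. CENPF (chr1:214603195-214664588), a large corona protein, had 260 counts under Nutlin-3 against 331 under ethanol, or 200 and 247 CPM, and a log2 ratio of -0.30 (-0.54 to -0.06). CENPE, the kinesin that carries chromosomes to the spindle equator, had 157 and 200 counts and the same fold change of -0.30, with an interval (-0.61 to 0.01) that just included 0. ZWILCH, part of the complex that brings dynein and the checkpoint proteins to the corona, had 112 and 134 counts. ZWINT, which binds the outer kinetochore scaffold, had 177 and 197 counts and a value of -0.11 (-0.41 to 0.19).

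All 7 checkpoint genes were lower, with a median of -0.23. BUB1B (chr15:40161023-40221136) encodes BUBR1, a part of the complex that inhibits CDC20, and had 131 counts under Nutlin-3 against 186 under ethanol. Its log2 ratio was -0.46 (-0.79 to -0.13), and it shares exons on its strand with the read-through gene BUB1B-PAK6. TTK, the kinase MPS1 that starts the signal, had 111 and 145 counts, -0.34 (-0.71 to 0.03), and BUB1, the kinase that it recruits through the scaffold, had 119 and 146, -0.25 (-0.61 to 0.11). MAD2L1, the MAD2 protein that captures CDC20, had 191 and 232 counts, -0.23 (-0.52 to 0.05), and CDC20 had 152 and 180, -0.20 (-0.52 to 0.12).

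The 2 checkpoint genes nearest to 0 were BUB3 and MAD1L1. BUB3, which carries BUB1 and BUBR1, had 165 counts under Nutlin-3 against 175 under ethanol, -0.04 (-0.35 to 0.28). MAD1L1, the platform for MAD2, had 56 and 60 counts, -0.05 (-0.61 to 0.50). Among the partners of the inhibitory complex, BUB1B therefore had an interval below 0 while those of BUB3, MAD2L1 and CDC20 included it, and the differences between these genes were not tested.

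Shugoshins protect centromeric cohesin until anaphase. SGO1 (chr3:20160593-20186292) had 99 counts under Nutlin-3 against 135 under ethanol, or 76.1 and 101 CPM, a log2 ratio of -0.40 (-0.79 to -0.02). SGO2 had 118 and 134 counts and a value of -0.14 (-0.51 to 0.23). CENPJ, which carries the CENP name but works in centriole assembly, had 105 and 128 counts, -0.24 (-0.63 to 0.14), within the range of the kinetochore genes.

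**Figure D2:**
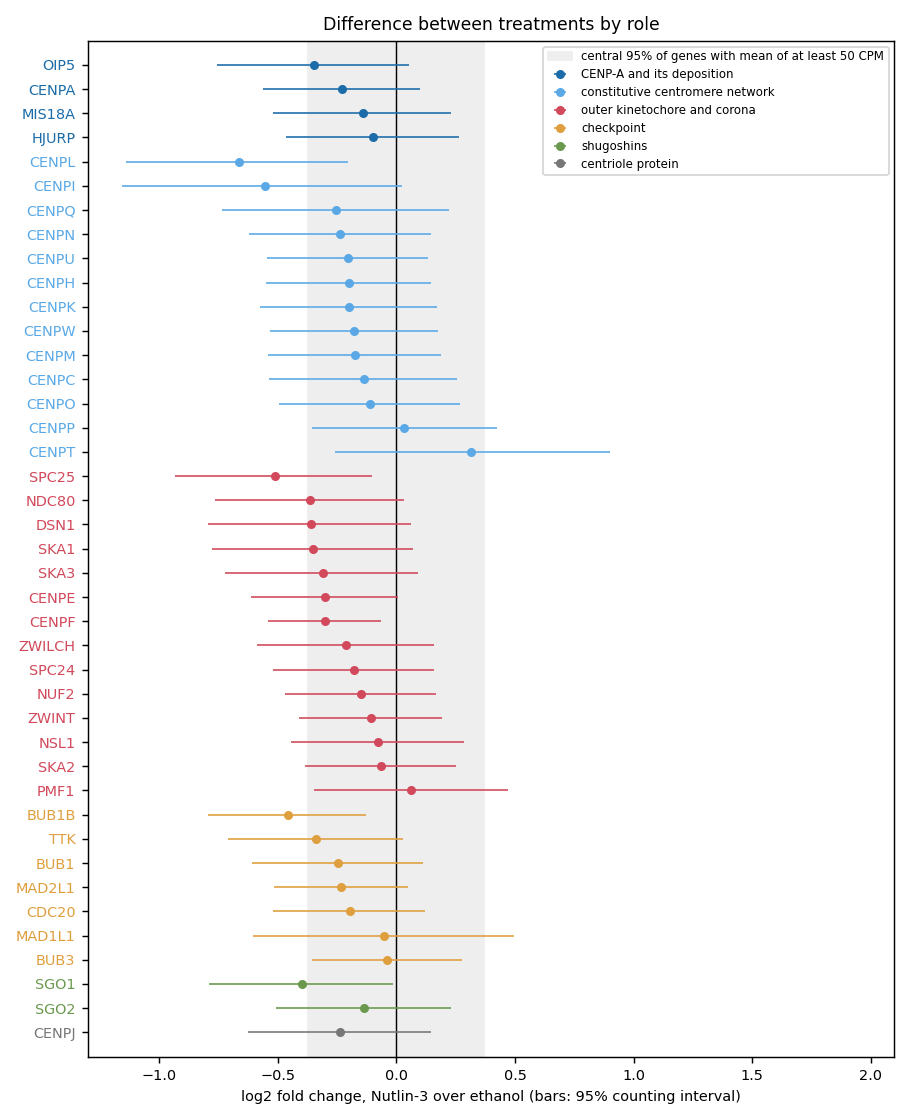
log2 ratio of each gene, Nutlin-3 over ethanol, with 95% counting intervals, coloured by role. The grey band holds the central 95% of the 8844 genes averaging 50 CPM or more (-0.37 to 0.37), and CENPL, SPC25, BUB1B and SGO1 lie to the left of it. CENPI, also to the left, is below that level, and the same range over all genes tested is wider (-0.92 to 1.12) and holds every member.

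Across the layers the sums differed little. Inner centromere counts made up 0.135% of the Nutlin-3 pool and 0.155% of the ethanol pool, a ratio of 0.873. Outer kinetochore and corona counts were 0.140% and 0.164%, a ratio of 0.855, and checkpoint counts were 0.0711% and 0.0837%, a ratio of 0.849. On the log2 scale these ratios were -0.20 (-0.29 to -0.10), -0.23 (-0.32 to -0.14) and -0.24 (-0.36 to -0.11). The 3 intervals overlap almost wholly, but most of these counts come from large columns, whose counting error such intervals do not describe. The differences between the layers were not tested.

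Genes of the same pathway that are not members were counted from a list of 36. Of these, 28 were lower and 8 higher, with a median of -0.13, against 50.3% of tested genes lower, and 5 had a counting interval below 0, against 3.57%. All 12 further kinetochore subunits were lower over all columns, with a median of -0.21, and 9 were lower and 3 higher in the large columns alone, with a median of -0.09. KNTC1, the ROD subunit that works with ZWILCH, had 232 counts under Nutlin-3 against 349 under ethanol, -0.54 (-0.79 to -0.30). The 4 genes of the chromosomal passenger complex, which corrects faulty attachments, were also lower. INCENP, its scaffold, had 32 and 64 counts, -0.94 (-1.61 to -0.32), and AURKB, its kinase, had 138 and 190, -0.41 (-0.74 to -0.09).

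The anaphase-promoting complex, the ubiquitin ligase on which the checkpoint acts, was level over all columns. Its 14 subunit genes held 1832 counts under Nutlin-3 against 1889 under ethanol, 0.141% in both. Of the 14, 8 were higher and 6 lower, with a median of 0.01 and 0 intervals off 0 on either side, against 3.57% of tested genes below and 4.55% above. The 6 genes of its partners and targets were all lower. UBE2C, its ubiquitin-conjugating enzyme, had 229 and 299 counts, -0.34 (-0.59 to -0.09), and FBXO5, its inhibitor EMI1, had 104 and 141, -0.39 (-0.77 to -0.02).

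Of the 38 members with 50 CPM or more, 31 had a value further from 0 in the small columns than in the large ones. This was so for 88.7% of genes at that level, so distance from 0 in either direction does not set the members apart. The direction did differ. Genes with a mean of 0.8 to 1.2 counts per large column had medians of -0.0041 in large and -0.0033 in small columns. The 29 members in that range had -0.15 and -0.41, and this difference was not tested. The median over the 41 members was -0.15 in the large columns and -0.43 in the small ones. Of the 38 members with 50 CPM or more, 36 were lower in the large columns, against 52.1% of genes at that level, and 35 in the small columns, against 48.0%. The classes hold separate counts, and 33 of those 38 members were lower in both, against 30.8% of genes at that level. The members' share of human counts was 0.367% in Nutlin-3 and 0.415% in ethanol in the large columns, a ratio of 0.882, and 0.406% and 0.560% in the small columns, a ratio of 0.725.

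A counting interval lay below 0 for 2 members in the large columns, against 1.32% of genes at 50 CPM or more, and for 3 in the small columns, against 1.92%. BUB1B had 117 counts under Nutlin-3 against 143 under ethanol in the large columns, -0.25 (-0.61 to 0.11), and 14 and 43 in the small ones, -1.45 (-2.47 to -0.58). SGO1 had 94 and 117 in the large columns, -0.27 (-0.68 to 0.13), and 5 and 18 in the small ones, -1.61 (-3.50 to -0.23). CENPE had 130 and 148, then 27 and 52, and its interval lay below 0 in the small columns, -0.80 (-1.54 to -0.11). SPC25 had 80 and 110, then 4 and 14. CENPL and CENPF were the reverse, with intervals below 0 in the large columns, at -0.65 (-1.14 to -0.18) and -0.31 (-0.60 to -0.03), and not in the small ones, where CENPL had 3 and 6 counts and CENPF 74 and 93. For 20 of the 41 members a treatment had fewer than 10 counts in the small columns, so those values carry wide intervals.

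**Figure D3:**
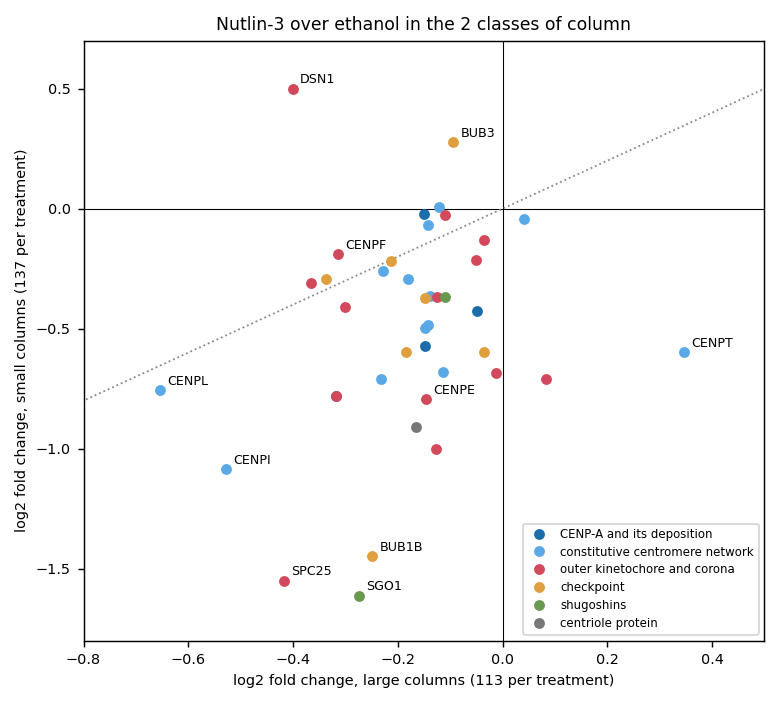
log2 ratio of each member in the large columns (horizontal) and in the small columns (vertical), coloured by role, with a dotted line where both are equal. Most members lie in the lower left part and below the dotted line. The vertical axis has the wider spread, as it does for other genes at this level.

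Counts in single large columns were mostly exactly 1. Over the 41 members and 113 large ethanol columns, 79.9% of values were 1, 7.88% were 0 and 12.3% were 2 or more. In Nutlin-3 these shares were 77.1%, 15.9% and 7.01%. The variance over columns was well below the mean, with a median ratio over members of 0.155 in ethanol and 0.187 in Nutlin-3, where independent counts would give a ratio near 1. In the small columns these medians were 0.897 and 0.941. A gene with near 1 count in every large column has a sum near 113 there, and among all 5731 genes with a mean of 0.8 to 1.2 counts per large column, the SD of the log2 ratio between genes was 0.114 in the large and 0.711 in the small columns. The 29 members at that level had a median of -0.15 in the large columns, against 0.00 for those 5731 genes, and 27 were below 0, against 51.3%.

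For the members, the difference between treatments in large columns thus appeared as more columns without a count and fewer with several. Columns with 2 or more counts were fewer in Nutlin-3 for 33 members and more for 4. The share over all genes was not worked out for that measure. The share of columns at 0 was higher in Nutlin-3 for 34 members and lower for 1, CENPT. Among members with 50 CPM or more it was higher for 32 of 38, against 57.7% of genes at that level. NDC80 was at 0 in 3 of 113 ethanol columns and in 27 of 113 Nutlin-3 columns. SPC25 was at 0 in 9 and 35, SKA1 in 13 and 34, and CENPL in 21 and 52. TTK was present in all 113 ethanol columns and absent from 14 Nutlin-3 columns. For CENPF and MAD2L1, which were seen in every large column, the change lay at the upper end. CENPF had 2 or more counts in 75 ethanol and 58 Nutlin-3 columns, with a highest value of 10 and 4, and MAD2L1 in 46 and 29. NUF2 moved less, from 23 to 20. Large columns had median depths of 10738 human counts in ethanol and 10617 in Nutlin-3. Thinned to 5000 counts each, with 0 columns left out, 28 of 41 members were seen in fewer Nutlin-3 columns, 7 in as many and 6 in more. Among members with 50 CPM or more this was 26 of 38 in fewer, against 47.9% of genes at that level. NDC80, which with SPC25 had the largest drop, was then seen in 53.1% and 36.3% of columns, from 97.3% and 76.1% before thinning. SKA2, with the largest move the other way, was seen in 46.0% and 55.8%. Every cell of a single line may express these genes, and a background from free RNA could not be measured.

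**Figure D4:**
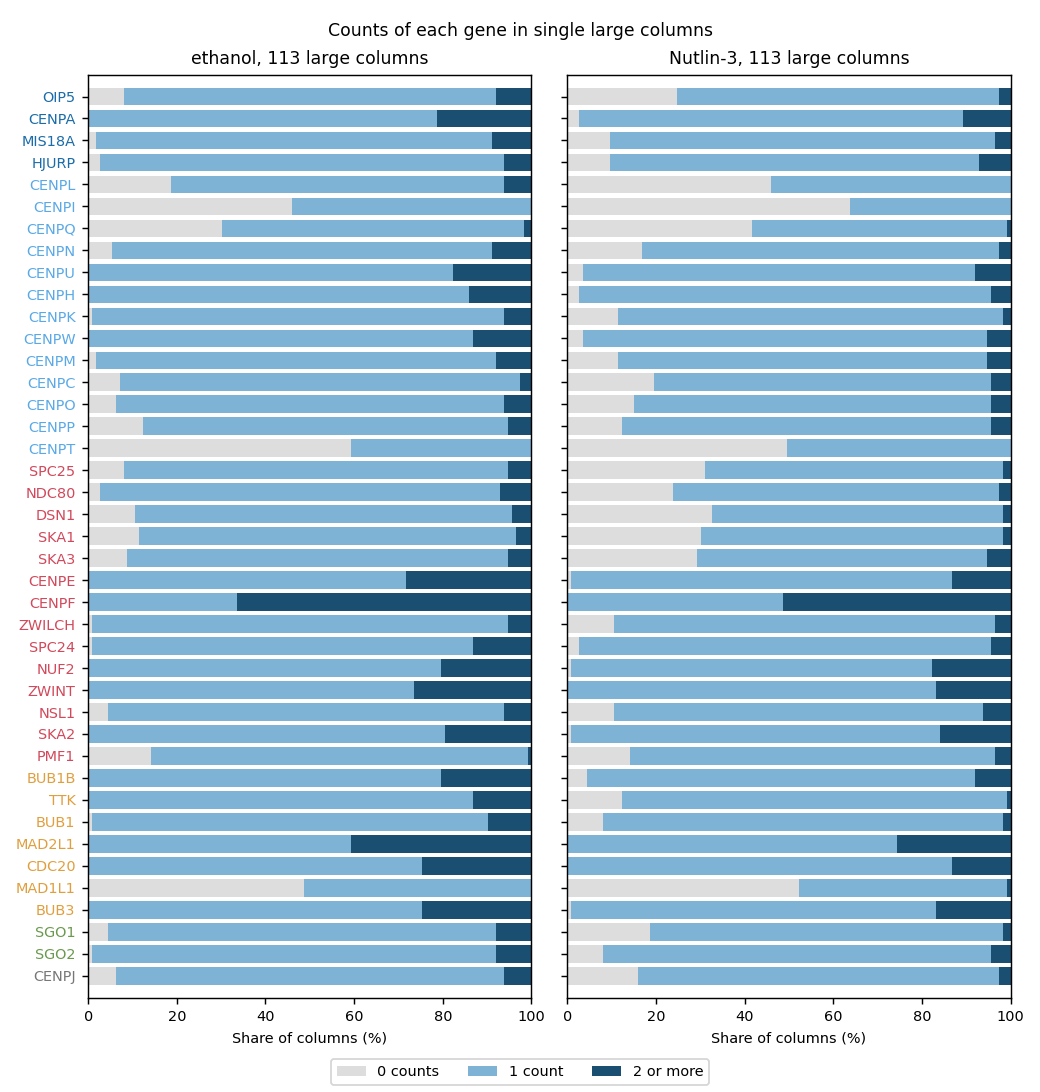
Share of the 113 large columns of each treatment with 0, 1 or at least 2 counts of each member, in ethanol (left) and Nutlin-3 (right). The grey part (0 counts) is wider in Nutlin-3 for most genes, and the dark part (2 or more) is narrower.

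The 41 genes were also summed within each column. The median column held 43.4 of their counts per 10000 human counts in ethanol and 36.7 in Nutlin-3. In large columns the ethanol values ran from 33.6 to 57.5 around a median of 41.1, and the Nutlin-3 values from 25.5 to 50.1 around 36.5. In small columns the medians were 53.5 and 37.1, with ranges from 0 to 139 and from 0 to 96.3, and 5 ethanol and 16 Nutlin-3 columns had no count of any member. The ranges of the treatments overlap in both classes. In 1 random thinning to 700 human counts each, which left out 56 ethanol and 63 Nutlin-3 columns, the mean column held 46.2 in ethanol and 38.0 in Nutlin-3. By class these means were 56.6 and 37.8 in the small columns and 38.7 and 38.2 in the large ones. The gap in large columns, whose means before thinning were 41.9 and 37.0, was thus not seen in this draw. The SD over large columns was then 22.1 in ethanol and 26.7 in Nutlin-3, so 1 draw cannot decide whether the gap depends on depth. Columns are not replicates, so no test was made.

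**Figure D5:**
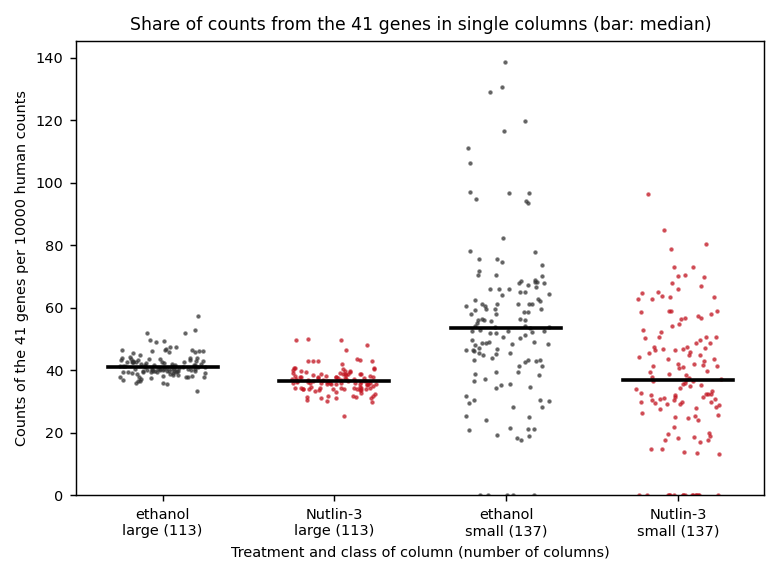
Counts of the 41 genes per 10000 human counts in each column, by treatment and class, with bars at the medians. The Nutlin-3 medians (36.5 in large and 37.1 in small columns) lie below those of ethanol (41.1 and 53.5), and the points overlap.

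Among the 31 columns per treatment whose names occur in 1 treatment alone, all of them small, the members had 97 counts under Nutlin-3 against 109 under ethanol, 0.421% and 0.550% of 23060 and 19805 human counts. The log2 ratio there was -0.39 (-0.80 to 0.02). The anaphase-promoting complex, level over all columns, was as low in these columns. It had 44 counts under Nutlin-3 against 50 under ethanol, -0.40 (-1.02 to 0.21). Both intervals include 0, so these counts cannot decide whether the difference in these columns was particular to the members. Exons of 17 members overlap those of another annotated gene, 14 of them on the opposite strand, among them SGO1 with SGO1-AS1. Whether the counting used strand is not given in the sources used here, so reads of these pairs cannot be told apart. Pseudogenes that carry a member's name are annotated for 8 members, BUB1, BUB3, CDC20, CENPC, CENPI, CENPU, SGO1 and SKA2, and their counts are uncertain for that reason.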

How the data were processed

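The authors deposited raw counts of each gene in each column, made from 4 libraries, 2 per treatment. Per the labels' protocols, cells were processed on the ddSeq device with the SureCell WTA 3' kit. The aligner, genome build and cell filter were each not given in the sources used here. Columns named treated were taken as Nutlin-3 and those named untreated as ethanol, with 0 left over.

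Counts were summed per treatment without the 62 ERCC species. edgeR 4.0.16 in R 4.3.3 gave the filter (minimum count 10) and TMM factors. Fold changes add 0.5 counts to each sum. Their 95% intervals come from the exact binomial share, which was tested on simulated independent counts alone. They hold no variation between cultures, and for sums of the large columns, whose counts were not independent, they do not describe the counting error. Large columns exceed 4000 counts. No test was possible with 1 pool per treatment, and no doublet caller was run. The members, roles and lists were chosen with earlier results of these data known. All members were described by their sums. Full statistics went to those with an interval off 0, and to the most counted, lowest and highest of each role. Some further members, such as NDC80, TTK and CENPE, were given them too. Of the other pathway genes, those with an interval off 0 were named. Gene names came from the gene table supplied, positions and overlaps from GENCODE release 29 (GRCh38), which need not be the authors' build, and promoters from RefSeq, of whose 38 member windows 32 ended within an annotated transcript of the gene in the same direction and 0 in reverse. Of the windows shown, those of SPC25, OIP5 and CENPW were not among the 32. The GENCODE gene of CENPW begins at 126340174, past the end of its window shown. Alternatives were DESeq2 1.42.0 size factors, ERCC scaling, 1 count added, no filter, each class of column, unshared names, equal weight per column and thinning to 700 counts.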

Additional observations from a re-analysis of the deposited data

How the results depend on the processing

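No paired analysis was possible because column names hold a treatment word and no replicate number. Tests with edgeR or DESeq2 and the fits without one library need that number too and were not run. Thinning to 5000 counts, the background of genes near 1 count per large column and the counts of intervals within a class were chosen after seeing the data.

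The median log2 ratio of the 41 members stayed below 0 under each alternative run. With unshared names that says nothing: 11 members had equal counts there, 19 fewer under Nutlin-3 and 11 more, and the median of -0.15 is the scaling constant itself. The ERCC total of a pool depends on how its columns divide between the libraries with 1000-fold and 10000-fold dilution, which is not known. The shift that ERCC scaling gives can therefore not be read as a result. Scaling to ERCC counts, which subtracts one constant from every gene and puts the median of all tested genes at -0.47, gave -0.67 for all members, -0.67 for the inner centromere, -0.66 for CENP-A and its deposition, -0.67 for the constitutive network, -0.73 for the outer kinetochore, -0.70 for the checkpoint, -0.60 for the other pathway genes and -0.46 for the anaphase-promoting complex. Small columns alone gave -0.43, -0.49, -0.50, -0.49 and -0.39 for the first 5 of these and -0.42 for the other pathway genes. Equal weight per column gave -0.37 for all members, -0.30 for the inner centromere, -0.39 for the constitutive network and -0.39 for the other pathway genes. Large columns alone gave -0.15 for all members and -0.14 for the outer kinetochore. Unshared names gave 0.64 for the 4 CENP-A genes, a change of sign on few counts, and -0.52 for the checkpoint. The anaphase-promoting complex, at 0.01, took the other sign with DESeq2 factors (-0.0094) and large columns (-0.0058), both close to 0. With unshared names its value (-0.15) is again the scaling constant, since 6 of its 14 genes had equal counts there.

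The 5 counting intervals below 0 became 2 in large and 3 in small columns. The 3 include that of CENPE, which was not among the 5. Each class holds fewer counts than both together. In large columns the values of BUB1B, SGO1 and SPC25 were also nearer to 0, at -0.25, -0.27 and -0.42. What part each of these had was not tested. The 14 members at -0.25 or lower became 40 with ERCC scaling, 30 in small columns and 27 with equal weight per column. Among genes with 50 CPM or more, 91.8%, 32.9% and 28.0% passed under these settings, against 38, 27 and 26 of the 38 members. Of 260 values of single members under 7 alternatives, 195 stayed within the first counting interval, 65 left it, and 0 of the 5 members with an interval below 0 changed sign. With unshared names only 14 members had enough counts for a value, and CENPL, SPC25 and SGO1 were not among them. Of the members with an interval that included 0, CENPO, CENPP, CENPT, CENPU, SPC24, DSN1, PMF1 and BUB3 changed sign under some setting. The median share per column after thinning was 42.9 per 10000 in ethanol and 28.6 in Nutlin-3, a gap of 1 count, and the large columns had these same medians with means of 38.7 and 38.2.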
